A study of Mus musculus with 6 samples.

Results

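The 10 lysosomal genes described here were measured in libraries labelled as T cells, from mouse T cells grown together with ovarian cancer cells. The genes are 6 cysteine cathepsins (Ctsb, Ctsc, Ctsk, Ctsl, Ctss and Ctsz), the aspartic protease Ctsd, the serine carboxypeptidase Ctsa, the asparaginyl endopeptidase Lgmn and the membrane glycoprotein Lamp1. They were taken by gene symbol from the 54532 genes of the deposited expression table, and all 10 were among the 15874 genes tested. The T cells were isolated from C57BL/6 spleens, from mice aged 6 to 8 weeks, activated with anti-CD3/CD28 beads for 72 h and cultured with IL-2 at 10 ng/mL. They then shared a culture with ID8, a cell line of mouse ovarian cancer. In 3 libraries these tumour cells had first received cisplatin, and in 3 they had received PBS (the cisplatin and the control libraries). That the tumour cells and not the T cells were treated comes from the study's methods, since the labels give 40 µM cisplatin or PBS only as the treatment of the T-cell samples. The comparison sets libraries from co-cultures with tumour cells that had met the drug against those with PBS. Markers of B cells, macrophages and ID8 cells were also detected in these libraries, as given below. The levels are therefore those of whole libraries and not of T cells alone. Messenger RNA was sequenced in bulk, so fewer cells of a type and less RNA per cell of that type cannot be told apart. The labels do not say whether the 3 libraries of a group came from separate mice or cultures, so the p-values measure only the spread between these libraries.

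Lysosomal cathepsins are made as inactive precursors, sorted to the endolysosome and activated there at acid pH. In immune cells they trim the invariant chain and antigens for MHC class II, activate granzymes, and degrade engulfed or membrane proteins, while cystatins restrain them. Lamp1 is a heavily glycosylated protein of the lysosome's limiting membrane and reaches the surface of cytotoxic T cells when their granules are released.

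The promoter windows of 5 of these genes are shown because they belong to the pair that differed most upward, to Ctsd with its smaller difference, to Lamp1 with no detectable difference, and to Ctsa among those that fell. Each window holds 300 bases, from 250 before to 50 after the RefSeq transcript start on build GRCm38.p6, written 5′ to 3′ on the gene's own strand. Capitals mark matches to the motifs named after them.
Ctss, chr3:95526536-95526835, plus strand: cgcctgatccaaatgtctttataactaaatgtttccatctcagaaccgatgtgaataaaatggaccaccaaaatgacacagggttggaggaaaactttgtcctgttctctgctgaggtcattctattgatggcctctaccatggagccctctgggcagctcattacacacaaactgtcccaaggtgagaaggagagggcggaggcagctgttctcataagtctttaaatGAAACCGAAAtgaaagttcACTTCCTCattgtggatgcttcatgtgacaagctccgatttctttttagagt
Ctsc, chr7:88277835-88278134, plus strand: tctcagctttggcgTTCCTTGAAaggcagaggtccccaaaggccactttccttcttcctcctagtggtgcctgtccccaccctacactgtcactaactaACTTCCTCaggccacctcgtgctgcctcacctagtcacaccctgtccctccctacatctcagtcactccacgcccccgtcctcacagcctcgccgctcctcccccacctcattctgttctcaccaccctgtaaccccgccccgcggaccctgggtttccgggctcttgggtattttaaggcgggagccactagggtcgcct
Ctsd, chr7:142387778-142388077, minus strand: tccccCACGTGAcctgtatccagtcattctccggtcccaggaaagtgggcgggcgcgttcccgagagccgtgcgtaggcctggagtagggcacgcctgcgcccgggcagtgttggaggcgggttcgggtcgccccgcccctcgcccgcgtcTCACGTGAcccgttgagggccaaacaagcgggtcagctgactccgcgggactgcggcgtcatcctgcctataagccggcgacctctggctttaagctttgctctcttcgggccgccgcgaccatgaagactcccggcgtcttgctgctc
Lamp1, chr8:13158911-13159210, plus strand: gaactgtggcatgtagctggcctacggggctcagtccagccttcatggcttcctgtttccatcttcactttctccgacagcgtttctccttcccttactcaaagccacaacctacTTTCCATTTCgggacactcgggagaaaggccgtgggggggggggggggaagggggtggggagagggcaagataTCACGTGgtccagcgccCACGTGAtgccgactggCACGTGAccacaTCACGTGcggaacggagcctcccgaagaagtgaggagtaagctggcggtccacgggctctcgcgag
Ctsa, chr2:164833523-164833822, plus strand: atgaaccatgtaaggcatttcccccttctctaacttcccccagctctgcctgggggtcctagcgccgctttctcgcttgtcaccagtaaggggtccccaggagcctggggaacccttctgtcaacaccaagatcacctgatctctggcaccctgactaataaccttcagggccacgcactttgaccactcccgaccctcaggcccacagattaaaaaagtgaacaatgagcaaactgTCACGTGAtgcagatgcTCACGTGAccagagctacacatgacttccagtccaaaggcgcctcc

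The RefSeq table held 11 windows for 9 of the 10 genes, with a pair each for Ctsa and Lgmn. Ctsb had no entry. Searched on both strands, the E-box CACGTG, the core of the sites that TFEB and its relatives bind at lysosomal genes, lay in 5 of the 11 windows (Ctsd, Ctsl, Lamp1 and 1 each of the pairs of Ctsa and Lgmn) and in 7.15% of all 32851 windows of the table. The Ctsa window printed is the downstream one, and the other, at chr2:164832622-164832921, over the start of the gene in the deposited table, held none of the motifs searched. For Lgmn too the match lay in the downstream window, at chr12:102439043-102439342. Its other window, at chr12:102439679-102439978, over the start of that gene, held none of the motifs either. The only Ctsl window lay wholly downstream of the start of Ctsl in the deposited table, at 64370890. For Ctsd that start, at 142388038, lay inside the window, between its E-boxes. The extended form TCACGTG, which contains CACGTG, lay in 4 of the 11 windows (all of those with CACGTG but Ctsl) and in 3.77% of all windows. Lamp1 carried 4 E-boxes, whose first bases lay 61, 45, 28 and 15 bases before the start. The PU.1-type motif GAGGAAGT was found in Ctss, 2 bases before the start, and in Ctsc, 151 bases before it, both on the opposite strand, and in 3.20% of all windows. The IRF-type motif, GAAA and again GAAA after any 2 bases, was found in Ctss and Lamp1 and in 3.44% of all windows, and overlapped no other motif there. The STAT motif TTCNNNGAA was found in Ctsc alone among the 10 genes and in 8.30% of all windows. The NF-kB motif, GGG and TTTCC with any 2 bases between them (1.63% of all windows) and the AP-1 motif TGACTCA (5.2% of them) were not found in the 11 windows. The motifs were chosen with the genes' values known, a match is a description of letters and not a bound site, and no binding was measured.

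The 6 libraries held 30606569 to 32169496 reads on genes, rebuilt from the deposited values. T-cell transcripts were abundant in every library, and all 19 T-cell markers (such as Cd3e, Lck and Trac) were higher in the cisplatin libraries, with a median log2 fold change of 0.59 and a summed level of 2439 to 2511 FPKM against 1524 to 1633 FPKM. FPKM is a count of fragments divided by gene length and by library size. That library size was 1.03 to 1.05 times the rebuilt reads on genes with cisplatin and 0.976 to 0.982 times in the controls. The length used covers all annotated exon bases of a gene, from 1358 for Ctss to 6489 for Ctsl among the 10 genes. Levels of different genes can be compared only as far as that length fits the transcripts present, which was not tested. Of 15 epithelial and mesothelial markers of ID8 cells, 11 were tested and 10 fell, with a median log2 fold change of -2.30 and a summed level of 201 to 208 FPKM against 1438 to 1511 FPKM. Of 12 macrophage markers 9 were tested, 8 were higher and Cd14 was lower, with a median of 1.54 and a summed level of 104 to 124 FPKM against 42.7 to 46.0 FPKM. Most of them were at low levels. Only 2 reached a mean of 5 FPKM, 1 higher and 1 lower, with a median of 0.54. With a pseudocount of 1 the median of the 9 was 0.96. The call of Adgre1 was lost in 7 of 17 alternative settings. All 7 B-cell markers were higher, with a median of 0.66 and a summed level of 3559 to 3641 FPKM against 1648 to 1730 FPKM. Of 6 dendritic-cell markers 3 were tested, 2 were higher and Zbtb46 was lower, and the summed level was 6.89 to 7.06 FPKM against 6.49 to 6.91 FPKM. Among all these markers only Siglech, on the dendritic-cell list, was at 0 in any library. The summed levels of the T-cell, ID8, macrophage and B-cell markers did not overlap between the groups, those of the dendritic-cell markers did, and the part of any of them in the results was not tested.

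The 10 genes did not move together. With cisplatin-pretreated ID8 cells, Ctss and Ctsc were at about 2 times their control level, Ctsd and Ctsz were moderately higher, Lamp1 did not differ detectably, and Ctsa, Ctsl, Lgmn and Ctsb were each at about 0.67 to 0.71 times their control level. By limma on log2(FPKM + 0.1), with Benjamini-Hochberg adjustment over all 15874 genes, 4 of the 10 were higher and 4 lower at an adjusted p under 0.05, beside 27.5% and 29.0% of all genes tested, or 56.5% in either direction. With a fold change of at least 2 added, Ctss was higher and none of the 10 was lower, beside 4.11% and 12.8% of all genes tested, or 16.9% in either direction. The median log2 fold change was 0.11 over the 10 genes and 0.03 over all genes tested. In 9 of the 10, all but Lamp1, the levels of the groups did not overlap, which was also so for 64.2% of all genes tested.

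**Figure D1:**
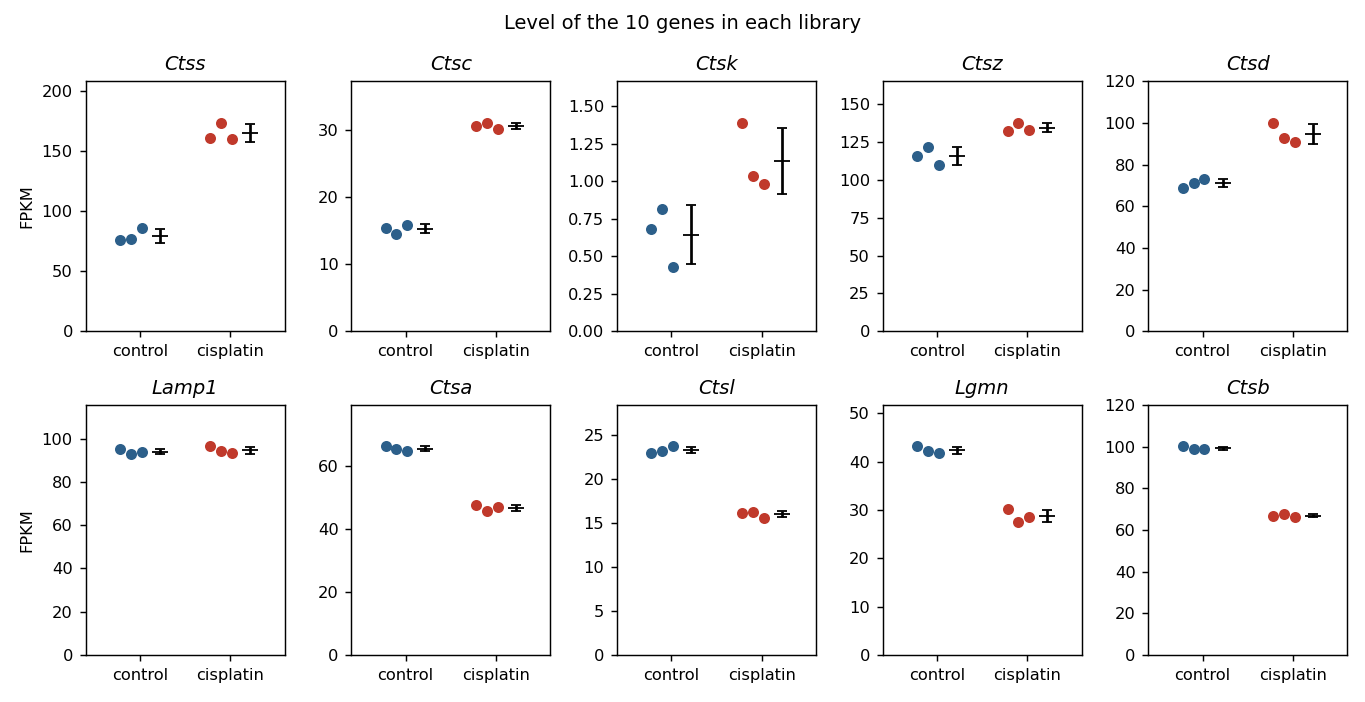
Level of each of the 10 genes in FPKM (vertical axes, linear and from 0, each on its own scale) in the 3 control (blue) and 3 cisplatin (red) libraries, with the mean and the SD beside the points. The groups are apart for every gene except Lamp1, with cisplatin on top for Ctss, Ctsc, Ctsk, Ctsz and Ctsd and below for Ctsa, Ctsl, Lgmn and Ctsb.

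Ctss encodes cathepsin S, the cysteine protease that removes the last part of the invariant chain from MHC class II and stays active near neutral pH. Its gene (ENSMUSG00000038642) lies on the plus strand of chromosome 3 at 95526786 to 95556403 (GRCm38). Ctss stood at 161, 173 and 160 FPKM in cisplatin libraries 1, 2 and 3 and at 75.7, 76.6 and 85.8 FPKM in control libraries 1, 2 and 3. Each cisplatin library lay far above each control library. The means were 165 ± 7.58 FPKM (SD, n = 3) and 79.4 ± 5.604 FPKM (SD, n = 3). This was a log2 fold change of 1.05 (SE 0.06, limma adjusted p = 1.1e-05), with a 95% interval of 0.91 to 1.19.

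Ctsc encodes cathepsin C, the dipeptidyl peptidase that activates granzymes and other granule proteases by removing a dipeptide from their start. The gene (ENSMUSG00000030560) lies on the plus strand of chromosome 7 at 88278085 to 88310888. Its levels were 30.7, 31.2 and 30.2 FPKM in the cisplatin libraries and 15.5, 14.6 and 15.9 FPKM in the control libraries. The spread within each group was small beside the gap between them. The means were 30.7 ± 0.494 FPKM and 15.3 ± 0.679 FPKM (SD, n = 3 each), and the log2 fold change was 0.9995 (SE 0.04, limma adjusted p = 3.2e-06). It fell just short of the 2-fold minimum, and with a pseudocount of 0.01, by quantile normalization or by voom it passed, as it did without cisplatin library 3, control library 1 or control library 3 (up to 1.03). Ctss and Ctsc share no exon bases with another gene of the GENCODE M21 annotation.

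Ctsk encodes cathepsin K, the collagen-degrading protease best known from osteoclasts. It lies 17423 bases upstream of Ctss on the same strand of chromosome 3, from 95499256 to 95509362. It was by far the lowest of the 10 genes, at 1.39, 1.04 and 0.980 FPKM in the cisplatin libraries and 0.683, 0.816 and 0.431 FPKM in the control libraries. These levels rest on 68, 52 and 48 reads and on 31, 37 and 20 reads. The cisplatin libraries were all above the control libraries, but the log2 fold change of 0.75 (SE 0.28) did not pass the test (limma adjusted p = 0.055). Its 95% interval ran from 0.09 to 1.42, and without control library 2 it was 0.92 and passed.

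Ctsz encodes cathepsin Z, a carboxypeptidase that also binds integrins, and it was the most abundant of the 10 in the control libraries. Its levels were 133, 138 and 133 FPKM with cisplatin and 116, 122 and 110 FPKM in the controls. The groups were close but did not overlap. Ctsz thus had a log2 fold change of 0.22 (SE 0.04, limma adjusted p = 0.0049), and it became -0.37 once the libraries were centred on their T-cell markers. The gene lies on the minus strand of chromosome 2 at 174427493 to 174439039.

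Ctsd encodes cathepsin D, the main aspartic protease of the lysosome, which also processes the precursors of other cathepsins. It stood at 100.06, 92.8 and 91.0 FPKM with cisplatin and at 69.0, 71.3 and 73.0 FPKM in the controls. All cisplatin libraries were above all control libraries. On the log2 scale they differed by 0.41 (SE 0.04, limma adjusted p = 2.6e-04), and it became -0.17 when centred on the T-cell markers. The gene lies on the minus strand of chromosome 7 at 142375911 to 142388038. The annotation places 808 of its 2351 exon bases (34.4%) also in Gm49369 on the same strand, a gene listed at 0 in every library.

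Lamp1 stood at 96.4, 94.4 and 93.3 FPKM with cisplatin and at 95.3, 93.0 and 93.6 FPKM in the controls. The groups overlapped. The means were 94.7 ± 1.61 FPKM and 94.0 ± 1.16 FPKM (SD, n = 3 each). The log2 fold change was 0.01 (SE 0.03, limma adjusted p = 0.76), with a 95% interval of -0.05 to 0.08 on the scale as deposited. Centred on the T-cell markers, the same libraries gave -0.57. Lamp1 lies on the plus strand of chromosome 8 at 13159161 to 13175338 and shares 249 of its 2675 exon bases with Grtp1 on the opposite strand.

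Ctsb encodes cathepsin B, an endopeptidase and dipeptidyl carboxypeptidase that can reach the cytosol when lysosomes leak. Its levels were 66.7, 67.8 and 66.2 FPKM with cisplatin and 100.2, 98.8 and 98.7 FPKM in the controls. The replicates of each group nearly coincided, and the cisplatin group was lower. Its log2 fold change was -0.57 (SE 0.03, limma adjusted p = 4.4e-06). Ctsb lies on the plus strand of chromosome 14 at 63122462 to 63145923, and 774 of its 6051 exon bases are shared with Fdft1 on the opposite strand.

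Lgmn encodes legumain, which cuts after asparagine and converts several single-chain cathepsins to their 2-chain forms. It stood at 30.2, 27.6 and 28.6 FPKM with cisplatin and at 43.2, 42.2 and 41.8 FPKM in the controls, so the cisplatin libraries were all lower. The log2 fold change was -0.56 (SE 0.04, limma adjusted p = 3.9e-05). The gene is on the minus strand of chromosome 12 at 102394084 to 102439813.

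Ctsl encodes cathepsin L, an endopeptidase that degrades the invariant chain in the thymic cortex. It stood at 16.2, 16.3 and 15.6 FPKM with cisplatin and at 23.0, 23.3 and 23.8 FPKM in the controls. Ctsl was lower in each cisplatin library, with a log2 fold change of -0.54 (SE 0.03, limma adjusted p = 2.1e-05). It lies on the minus strand of chromosome 13 at 64359337 to 64370890, and 1742 of its 6489 exon bases (26.8%) are also in Gm47123, an antisense gene listed at 0 in every library.

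Ctsa encodes cathepsin A, a carboxypeptidase that also protects beta-galactosidase and neuraminidase 1 in a complex. Its levels were 47.5, 45.6 and 46.8 FPKM with cisplatin and 66.2, 65.5 and 64.8 FPKM in the controls. Again the cisplatin libraries were all lower. Its log2 fold change was -0.49 (SE 0.03, limma adjusted p = 1.4e-05). It lies on the plus strand of chromosome 2 at 164832873 to 164841032. It shares 495 of its 4715 exon bases with Pltp, which stood at 4.15 FPKM with cisplatin and 10.2 FPKM in the controls, and 324 with Neurl2, both on the opposite strand. Strand-specific counting is not given in the sources used here, so reads from shared exon bases of opposite genes cannot be assigned with certainty.

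The signs of Ctsz, Ctsd and Lamp1 depended on the scale on which the libraries were set against each other. Centring each library on the 19 T-cell markers moved the median log2 fold change of all genes tested to -0.55. On that scale Ctss was at 0.47 and Ctsc at 0.42, while Ctsa (-1.07), Ctsl (-1.12), Lgmn (-1.14) and Ctsb (-1.15) passed the 2-fold minimum downward. Centring shifts all genes of a library alike, so relative to the median of all genes the values are by construction the same on both scales: 1.03 for Ctss, 0.97 for Ctsc, 0.73 for Ctsk, 0.38 for Ctsd, 0.19 for Ctsz, -0.02 for Lamp1, -0.52 for Ctsa, -0.57 for Ctsl, -0.59 for Lgmn and -0.60 for Ctsb. Quantile normalization moved the median to 0.16 and left Ctsz at 0.03 and Lamp1 at -0.13 relative to it. The T-cell-centred scale called 137 genes higher and 3776 lower, so 96.5% of its calls were lower, against 75.7% of the 653 and 2034 calls on the deposited scale. Quantile normalization gave 64.6% (979 higher, 1790 lower) and protein-coding genes alone gave 87.5% (255 higher, 1789 lower).

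**Figure D2:**
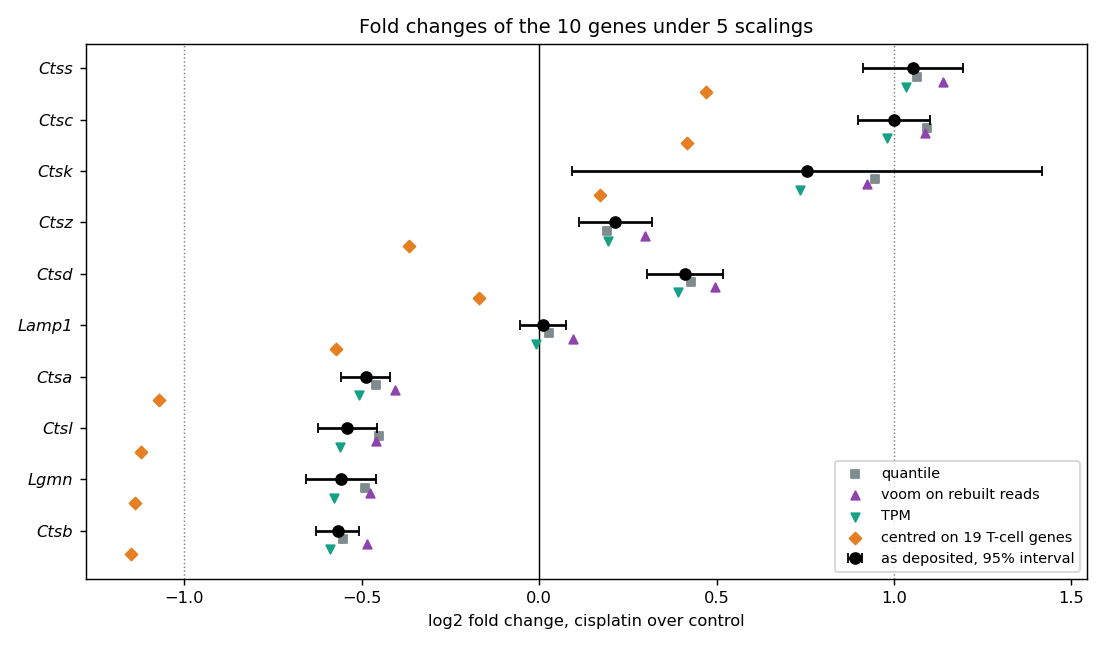
Log2 fold change of each of the 10 genes, cisplatin over control (horizontal axis), on the deposited FPKM scale with its 95% interval (black) and under 4 other scalings (coloured symbols); the dotted lines mark a 2-fold change. Centring on the 19 T-cell markers moves every gene to the left, so that Ctsd and Ctsz turn to -0.17 and -0.37, while quantile normalization, TPM and voom stay near the deposited values.

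Ratios taken inside a library do not depend on the scale between libraries, but they do depend on the gene chosen as reference. The log2 ratio of Ctss to Lamp1 was -0.25 ± 0.11 (SD, n = 3) in the control libraries and 0.80 ± 0.07 (SD, n = 3) in the cisplatin libraries, a difference of 1.04. For Ctsc the ratio to Lamp1 went from -2.61 ± 0.06 to -1.62 ± 0.03, a difference of 0.99. For Ctsb it went the other way, from 0.08 ± 0.01 to -0.50 ± 0.03, a difference of -0.58. The difference in the log2 ratio to Lamp1 was 0.74 for Ctsk, 0.40 for Ctsd, 0.20 for Ctsz, -0.50 for Ctsa, -0.55 for Ctsl and -0.57 for Lgmn. For each of the 9 proteases the ratios of the groups did not overlap, as was so for 63.2% of the 15873 other genes tested. The two-sided exact permutation p was 0.1, the smallest that 3 libraries against 3 allow. Lamp1 differed by only 0.01 on the deposited scale, so these differences nearly repeat the fold changes given above. The log2 ratios of Lamp2 and Cd63 to Lamp1 fell by 1.08 and 1.58. Ctsb, Ctsa, Ctsl and Lgmn fell less, so relative to Lamp2 or Cd63 their ratios rose.

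In the control libraries the order of the levels was Ctsz, Ctsb, Lamp1, Ctss, Ctsd, Ctsa, Lgmn, Ctsl, Ctsc and Ctsk, from 116 FPKM down to 0.643 FPKM, and no neighbours in that order overlapped. In the cisplatin libraries it was Ctss, Ctsz, Lamp1, Ctsd, Ctsb, Ctsa, Ctsc, Lgmn, Ctsl and Ctsk, from 165 FPKM down to 1.14 FPKM. There Lamp1 and Ctsd overlapped (94.7 and 94.6 FPKM) and no other neighbours did. In FPKM, Ctss thus stood below Ctsz, Ctsb and Lamp1 in the controls and above them with cisplatin. This order depends on the annotated gene lengths. In mean reads with cisplatin, Ctss (7301) was above Ctsz (6319) but below Lamp1 (8266) and Ctsb (13217).

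The summed level of the 9 proteases was 513 ± 3.20 FPKM (SD, n = 3) in the control libraries and 584 ± 10.9 FPKM (SD, n = 3) in the cisplatin libraries. Ctss made up 15.5 ± 1.05% of that sum in the controls and 28.2 ± 0.924% with cisplatin. The share of Ctsb went from 19.4 ± 0.280% to 11.5 ± 0.0983%, that of Ctsa from 12.8% to 8.0%, that of Lgmn from 8.27% to 4.93% and that of Ctsl from 4.55% to 2.74%. Ctsc went from 2.98% to 5.25%, Ctsd from 13.9% to 16.2% and Ctsk from 0.126% to 0.194%. For these 8 the groups did not overlap and the two-sided exact permutation p was 0.1, again the floor of the design. The share of Ctsz was 22.6 ± 1.13% and 23.0 ± 0.337%, and the groups overlapped (exact permutation p = 0.7). Its difference ran from -0.168 percentage points without control library 3 to 0.956 without control library 2. Shares of a sum add to 100% and are not independent of each other. Their sizes also depend on the annotated length of each gene.

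**Figure D3:**
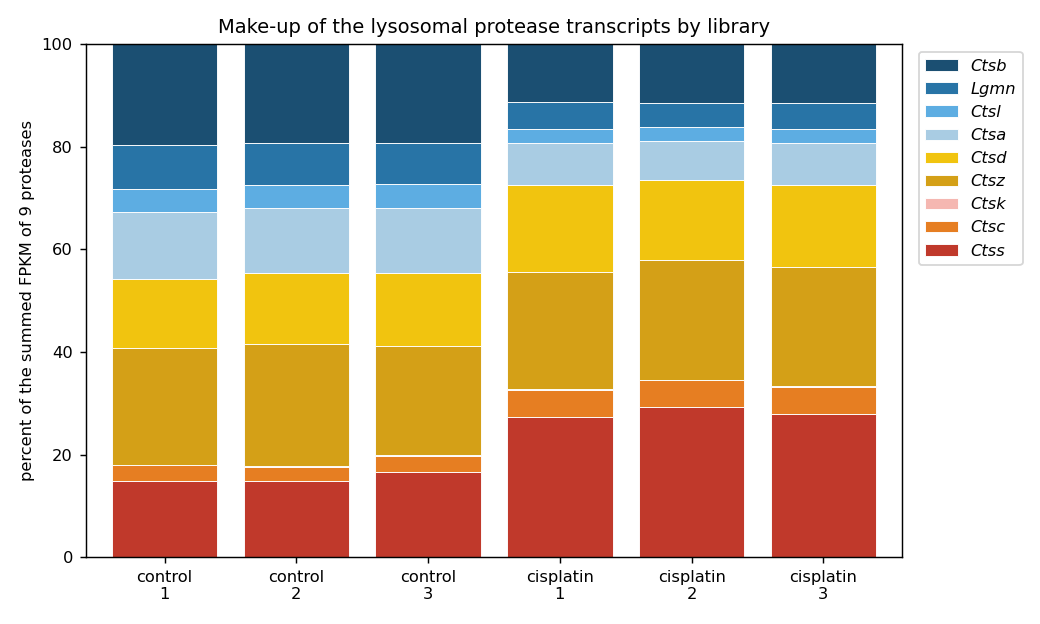
Make-up of the summed FPKM of the 9 proteases in each of the 6 libraries, in percent (stacked bars from 0 to 100). Ctss (red, at the bottom) takes 15.5% on average in the control libraries and 28.2% in the cisplatin libraries, while Ctsb (dark blue, at the top) goes from 19.4% to 11.5% and Ctsz stays near 23.0%.

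A further 6 cathepsins, chosen and not every other one of the family, were all tested. Of these 4 were higher and 0 lower, beside 27.5% and 29.0% of all genes tested. Ctsg, Ctsh, Ctso and Ctsw were higher, and Ctse (0.37, SE 0.14, limma adjusted p = 0.06) and Ctsf (-0.09, SE 0.10, limma adjusted p = 0.49) did not pass. Ctsg, a serine protease of myeloid granules, had 87, 91 and 94 reads with cisplatin and 6, 28 and 5 reads in the controls, and it was the 1 of the 6 past the 2-fold minimum (log2 fold change 2.72, SE 0.51, limma adjusted p = 0.0038). Ctsh, an aminopeptidase, was at 14.0 ± 1.04 and 8.87 ± 0.386 FPKM (log2 fold change 0.65). Ctsw, which is found in cytotoxic T cells and natural killer cells, was at 93.1 ± 3.47 and 86.5 ± 1.76 FPKM (0.11, SE 0.04, limma adjusted p = 0.046). The call of Ctsw was lost in 10 of 18 alternatives, among them TPM, the replicate block and leaving out any library but cisplatin library 1, and it turned to -0.48 when centred on the T-cell markers. Ctsh and Ctso (0.07 and -0.05) did not pass with that centring.

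Of 12 other genes of lysosomal membrane proteins 10 were tested, 2 were higher, 5 lower and 3 did not pass. Of all genes tested, 27.5% were higher and 29.0% lower. Lamp2, the closest relative of Lamp1 on the list and a receptor of chaperone-mediated autophagy, stood at 15.4, 14.9 and 15.0 FPKM with cisplatin and at 31.9, 33.0 and 30.6 FPKM in the controls. Its log2 fold change was -1.07 (SE 0.04, limma adjusted p = 1.6e-06), and inside the libraries its log2 ratio to Lamp1 fell by 1.08, a ratio that was chosen after its values had been seen. The tetraspanin Cd63 (-1.57, SE 0.04) and Laptm4b (-1.06, SE 0.08) also passed the 2-fold minimum downward. Laptm5, a lysosomal protein of blood cells that lowers surface antigen receptor, was higher (407 ± 9.0 against 247 ± 6.45 FPKM, log2 fold change 0.72), as was the calcium channel Mcoln1 (0.44, but -0.15 when centred on the T-cell markers). Cd68 was at 24.2 ± 1.98 and 24.1 ± 0.989 FPKM and did not pass the test (limma adjusted p = 0.97). Lamp3 and Lamp5 were below the minimum level for testing.

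Of 7 cystatins, the protein inhibitors of cysteine cathepsins, 3 were tested. Cst7, or cystatin F, which enters lysosomes and restrains cathepsin C in cytotoxic cells, was at 69.6 ± 3.81 FPKM with cisplatin and 36.7 ± 0.509 FPKM in the controls (log2 fold change 0.92, SE 0.04, limma adjusted p = 5.5e-06). Cstb, a cytosolic inhibitor, was at 75.7 ± 2.67 and 131 ± 9.07 FPKM (-0.79, SE 0.06, limma adjusted p = 3.2e-05). Cst3, which is secreted, was at 70.3 ± 2.34 and 85.5 ± 5.18 FPKM (-0.28, SE 0.05, limma adjusted p = 0.003). Among 5 known substrates and partners of the 10 genes, Cd74, the invariant chain that cathepsin S cuts, was at 832 ± 16.1 and 505 ± 22.7 FPKM (0.72, SE 0.04, limma adjusted p = 1.3e-05). Gzma, a granzyme activated by cathepsin C, was at 40.3 ± 2.68 and 29.4 ± 1.15 FPKM (0.45, SE 0.06, and -0.13 without passing when centred on the T-cell markers), whereas Gzmb was at 152 ± 6.14 and 142 ± 6.08 FPKM and did not pass (limma adjusted p = 0.12). Prf1, the pore-forming granule protein, fell (-0.25, SE 0.07, limma adjusted p = 0.027), a call that was lost in 7 of 18 alternatives, among them quantile normalization, voom and leaving out any of the 3 control libraries or cisplatin library 2 or 3 (adjusted p up to 0.20). Ifi30, the lysosomal thiol reductase, did not pass (0.13, limma adjusted p = 0.11).

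The lysosomal hydrolases and activators chosen for comparison were also split. Of 32 genes tested, 11 were higher, 16 lower and 5 did not pass, beside 27.5% and 29.0% of all genes tested. The median log2 fold change was -0.25, beside 0.03 over all genes tested. It was -0.11 over the 28 with a mean of at least 5 FPKM, beside 0.035 over all genes at that level. By quantile normalization it was -0.15, beside 0.16 over all genes. Centred on the T-cell markers it was -0.83, beside -0.55 over all genes, with 0 higher and 29 lower. On that scale 737 of all genes tested were higher and 10551 lower. Naglu, which degrades heparan sulfate, was the 1 past the 2-fold minimum (10.3 ± 0.316 against 24.4 ± 1.33 FPKM, log2 fold change -1.23). The 2 enzymes that cathepsin A protects differed in direction: Neu1 was at 25.4 ± 0.839 and 21.1 ± 0.255 FPKM (0.27, SE 0.04) and Glb1 at 13.4 ± 0.454 and 18.2 ± 0.744 FPKM (-0.44, SE 0.05). Psap, the precursor of saposins that cathepsin D cleaves, was at 504 ± 8.27 and 377 ± 6.43 FPKM (0.42, SE 0.03). Centred on the T-cell markers, Neu1 was at -0.31 and Psap at -0.16.

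**Figure D4:**
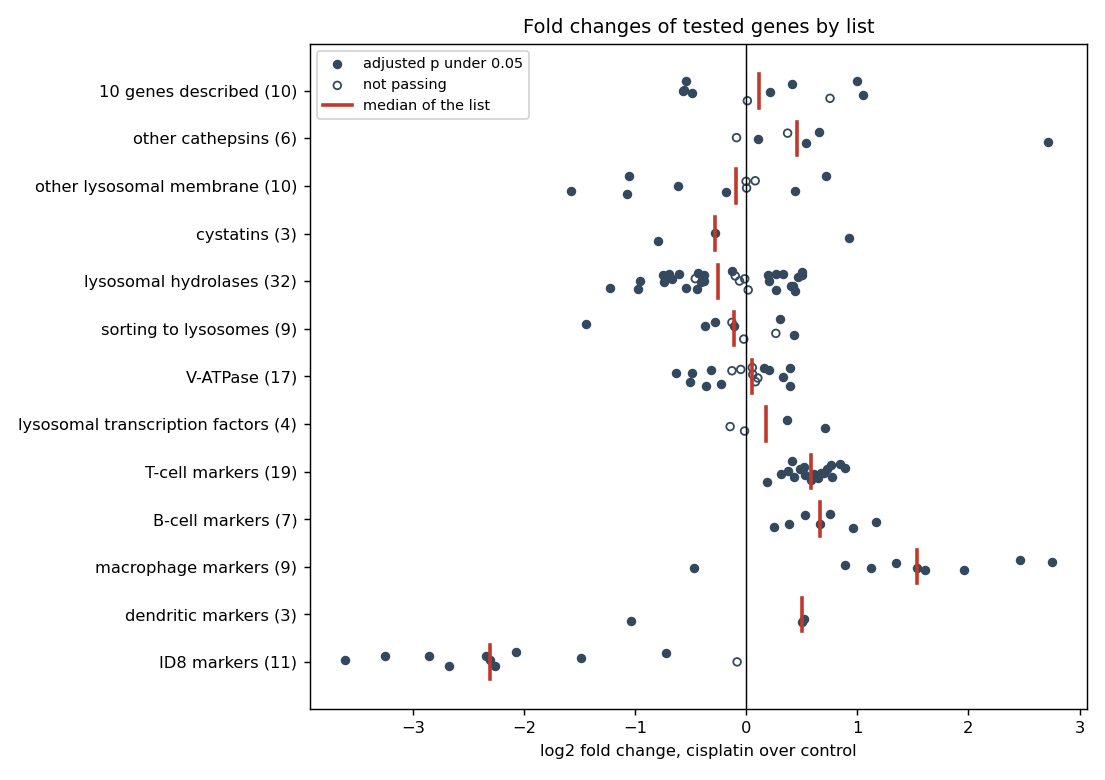
Log2 fold change, cisplatin over control (horizontal axis), of every tested gene of each list (rows, with the number tested); filled points passed an adjusted p of 0.05, open points did not, and the red bar is the median of the list. The 10 genes described and the lysosomal hydrolases lie on both sides of 0, the T-cell and B-cell markers lie to the right, and the ID8 markers lie to the left with a median of -2.30.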

How the data were processed

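RNA came from samples labelled as T cells, collected after co-culture with ID8 cells (3 cisplatin and 3 control libraries). The deposited unit was FPKM. Per the labels, the authors' processing notes list fastp, HISAT2 2.0.5, featureCounts 1.5.0-p3 and mm10, while the paper's methods name LifeScope for alignment and counting, and which of them made the deposited FPKM is not settled here. Strand of counting is not given in the sources used here. For differential expression the authors used DESeq2 on counts. The table held 0 further sample columns.

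Whole reads were rebuilt from FPKM and gene length (100% within 0.1 of a whole read) to give the depth, 30606569 to 32169496 reads, which limits counting error only. The main test was limma 3.58.1 (R 4.3.3, lmFit, eBayes with trend) on log2(FPKM + 0.1), so fold changes of low genes are understated, over 15874 genes (mean level 0.5 FPKM or more) out of 33456 that had a read. A gene was called at a Benjamini-Hochberg adjusted p below 0.05 with a 2-fold difference. Ratios to Lamp1 and shares were compared by two-sided exact permutation tests (python 3.11.15, scipy 1.17.1). Symbols and coordinates are those of the table, identical to GENCODE M21 for 53499 of 54409 genes, and promoter windows are from RefSeq on GRCm38.p6. Only the limma and voom steps were run on simulated reads. Those held few changed genes, split evenly by direction, and no shift of all genes. The run was unlike these data in this and is no check of the results here. Replicates differed by more than sampling noise (chi-square per degree of freedom 5.35 to 6.44).

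The 10 genes and the other lists were chosen with earlier results of these data known. All 10 are named. From the other lists the genes past the 2-fold minimum, at most 4 in each direction, and known partners, inhibitors or substrates are named, and Ctse, Ctsf, Ctsh, Ctso, Ctsw, Laptm5, Mcoln1 and Cd68 were named after their values were seen. The alternatives were other pseudocounts (1 and 0.01), no filter or a mean of at least 5 FPKM, quantile normalization, TPM, median of ratios, centring on T-cell markers, no trend, limma's voom on the rebuilt reads, protein-coding genes alone, leaving out each library, and the replicate number as a block.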

Additional observations from a re-analysis of the deposited data

How the results depend on the processing

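Of 449 values recomputed under alternatives, 416 were counted as unchanged. A fold change had to keep its direction and its side of the adjusted p threshold, so crossing the 2-fold minimum alone was not counted. A count had to move by no more than 1.5 times. Ratios to Lamp1 and shares had to keep their direction only, so a change in their size was not counted. Where the groups did not overlap, leaving out a library could not change that direction. With other filters, no trend, the replicate block or protein-coding genes alone, each fold change was by construction the same. In those settings only its adjusted p could move. The number of unchanged values is therefore not a count of independent checks. The log2 fold change of Ctsk passed the threshold with a pseudocount of 1 (0.38), quantile normalization (0.95), no trend (0.75), voom (0.92) and protein-coding genes alone (0.75), and ranged from 0.53 to 0.92 leaving out each library in turn. Without control library 2 it was 0.92 and passed, and its limma adjusted p ranged from 0.016 to 0.61 over the alternatives. Centred on the T-cell markers, Ctsz was -0.37, Ctsd -0.17 and Lamp1 -0.57. Lamp1 was also -0.0094 by TPM, 0.094 and past the threshold by voom, and ranged from -0.0024 to 0.022 leaving out a library. Of the 10 genes, 2 were called higher with a pseudocount of 0.01, quantile normalization or voom, and 1 to 2 leaving out a library (2 without cisplatin library 3, control library 1 or control library 3). With centring 0 were called higher and 4 lower, and 2 were higher and 7 lower by adjusted p alone. Of all genes, 311 were called higher with a pseudocount of 1, 242 higher and 903 lower at a mean of at least 5 FPKM (2893 lower by adjusted p alone), 1127 higher by voom and 255 higher among protein-coding genes. With centring 137 were called higher and 3776 lower, and 737 higher and 10551 lower by adjusted p alone. The share of Ctsz in the protease sum changed by -0.168 to 0.956 percentage points leaving out a library, the lowest without control library 3. Voom scaled each library by its rebuilt reads and not by the library size behind the deposited FPKM, which differed between the groups as given above. The part of this in the voom values was not tested, nor was the cause of the other changes.

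The main test did not pair the samples by replicate number. The deviations of libraries with the same number correlated at 0.02, -0.06 and -0.02, and those with other numbers at -0.06 to 0.08. These values cannot show whether libraries of the same number shared a mouse or culture. With the replicate number as a block, 651 genes were called higher and 2011 lower, and no call among the 10 genes changed. From the other lists, Ctsw, Mitf and the macrophage marker Adgre1 lost theirs. Depth limits Ctsk, with 20 to 68 reads a library, while the other 9 genes had 2123 to 18326 reads. With 3 libraries a group, the exact tests could not go below a p of 0.1.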

Other observations

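For the vacuolar ATPase, the pump that acidifies lysosomes, 17 subunit genes were chosen, not every one, and all 17 were tested. Of these, 5 were higher and 6 lower, beside 27.5% and 29.0% of all genes tested. None passed the 2-fold minimum, beside 16.9% of all genes tested. The lowest and the highest were Atp6v1e1 (15.95 ± 0.376 FPKM with cisplatin, 24.7 ± 0.373 FPKM in the controls, log2 fold change -0.63) and Atp6v1d (25.9 ± 0.735 and 19.6 ± 0.587 FPKM, 0.40), named after their values were seen. Of 9 genes that sort enzymes to lysosomes, 2 were higher and 4 lower, again beside 27.5% and 29.0% of all genes tested. Sort1, the sorting receptor sortilin, was at 3.59 ± 0.264 and 9.91 ± 0.356 FPKM (log2 fold change -1.44, limma adjusted p = 5.9e-06), and Igf2r, the large mannose 6-phosphate receptor, was at 26.1 ± 0.572 and 33.9 ± 0.763 FPKM (-0.37). Of 5 transcription factors of lysosomal genes 4 were tested. Tfeb was at 5.54 ± 0.509 and 5.59 ± 0.442 FPKM (limma adjusted p = 0.91) and Tfe3 at 4.28 ± 0.306 and 4.73 ± 0.122 FPKM (limma adjusted p = 0.13). Mitf was higher at low levels (0.909 ± 0.0653 against 0.518 ± 0.0695 FPKM, limma adjusted p = 0.031), but the call was lost in 8 of 17 alternatives, among them the replicate block, no filter and leaving out any library but control library 2. Zkscan3, a repressor of lysosomal genes, was at 17.9 ± 0.584 and 13.9 ± 0.515 FPKM (log2 fold change 0.37). Centred on the T-cell markers, Zkscan3 was at -0.21 and Atp6v1d at -0.18.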
